A study of Mus musculus with 3 samples.

Results

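The gelatinase stage neutrophil genes are 8 genes, Mmp8, Mmp9, Mmp25, Retnlg, Adam8, Olfm4, Padi4 and Clec4d, of the 31053 genes in the count tables. They were chosen by symbol, each symbol matched 1 row, and all 8 are accounted for below whatever their values. They were followed through 3 single-cell RNA sequencing libraries made with a 10x Genomics 3′ kit from Kit-enriched bone marrow cells of C57BL/6 mice. There was 1 library in each group. The groups were unchallenged mice at steady state, mice given E. coli as 1 challenge with a label of 24 h (challenged once), and mice given 2 challenges with a label of 48 h (rechallenged). No transgene, deletion or other agent is named for any group, and the labels do not give age, sex, the dose, pooling of animals or the moment from which the hours count. The number of challenges and the labelled hours differ together and cannot be told apart. The source label of every library reads neutrophil although the enrichment label names Kit, which late neutrophils largely lack, so the late neutrophils here are those that came through that enrichment.

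Neutrophils load their granules in waves as they mature in the marrow. Azurophil granule enzymes are made first by progenitors, specific granule proteins next by immature cells, and gelatinase granule proteins last, before secretory vesicles form and the cell leaves for the blood. Mmp8 is the neutrophil collagenase, Mmp9 is gelatinase B and Mmp25 is a membrane-anchored matrix metalloproteinase of leukocytes. Retnlg encodes a small secreted protein of the resistin family and Adam8 a membrane protease with a disintegrin domain. Olfm4 encodes a granule glycoprotein known to mark only a subset of neutrophils. Padi4 converts arginine to citrulline in histones and is known for its part in neutrophil extracellular traps. Clec4d is a C-type lectin receptor for microbial glycolipids that works with Clec4e and the adaptor Fcer1g.

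The promoters of 3 members are shown because Mmp8 and Retnlg stepped up steeply into the mature clusters and Olfm4 did not. Clec4d, not shown, stepped up 45.8-fold from cluster 4 to cluster 12 (described below) in the unchallenged library, from 11 UMIs in cluster 4. It had no match to either motif marked here, so the choice of promoters shows no link between motif and step. Each sequence is the 250 bases before the RefSeq start site, 5′ to 3′ on the gene's strand, on GRCm38.p6. Capitals mark matches to the C/EBP motif TTGCNNAA or the PU.1 motif GAGGAAGT on either strand. C/EBP and PU.1 are transcription factors of the granulocyte lineage. Mmp8 lies at chr9:7558179-7558428, Retnlg at chr16:48872358-48872607 and Olfm4 at chr14:80000052-80000301, all on the plus strand.
Mmp8: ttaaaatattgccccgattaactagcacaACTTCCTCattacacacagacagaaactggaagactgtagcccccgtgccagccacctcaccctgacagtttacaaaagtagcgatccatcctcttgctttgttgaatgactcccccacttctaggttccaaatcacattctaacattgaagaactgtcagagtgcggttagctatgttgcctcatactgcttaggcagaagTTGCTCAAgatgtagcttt
Retnlg: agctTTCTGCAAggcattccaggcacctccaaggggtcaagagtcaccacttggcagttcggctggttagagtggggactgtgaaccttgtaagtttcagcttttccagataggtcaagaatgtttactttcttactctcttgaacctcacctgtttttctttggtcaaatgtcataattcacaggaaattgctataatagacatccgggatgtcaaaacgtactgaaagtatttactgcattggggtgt
Olfm4: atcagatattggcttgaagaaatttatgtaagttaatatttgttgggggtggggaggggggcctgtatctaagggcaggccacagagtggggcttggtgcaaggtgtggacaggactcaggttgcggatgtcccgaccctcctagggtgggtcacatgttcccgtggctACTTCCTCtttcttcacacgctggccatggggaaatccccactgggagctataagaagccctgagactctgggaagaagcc
In windows of 300 bases (250 before and 50 after the start), 7 of the 8 members had an entry, all but Mmp9. The motif TTGCNNAA was found in 3 of the 7, Mmp8, Retnlg and Adam8, against 10.8% of 32851 promoters. Its first base lay 19 bases before the start in Mmp8, 246 before in Retnlg and 219 before in Adam8. The motif GAGGAAGT was found in Mmp8 and Olfm4, 2 of the 7, against 3.2% of promoters, 221 and 81 bases before the start. A looser C/EBP motif, TTNNNCAA, which can overlap the first, was found in 5 of the 7 against 36.7%. The AP-1 motif TGANTCA was found in 1, Padi4, against 7.81%, and a 10-letter NF-kB motif in 1, Olfm4, against 5.55% (the window also holds the PU.1 match, without overlap). The RUNX motif TGTGGTT was found in 0 of the 7 against 5.27%. All motifs were searched on both strands. These are matches of letters in a window and say nothing about binding.

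The 8 genes lie on 8 chromosomes and are all protein-coding in GENCODE M21 on GRCm38. Mmp8 is at chr9:7558456-7568485, Mmp9 at chr2:164940780-164955850, Mmp25 at chr17:23628311-23645277 and Retnlg at chr16:48872621-48874496. Adam8 is at chr7:139978932-139992562, Olfm4 at chr14:79984081-80023139, Padi4 at chr4:140745865-140774236 and Clec4d at chr6:123262111-123275265. In the last 300 bases of their transcripts, 6 members shared no 31-base word with another gene, while Mmp25 shared 3.88% of its words with others and Padi4 shared 0.278% with Padi2. Other annotated genes overlap 3 members: 2 pseudogenes on the opposite strand of Mmp25, Gm16201 on the opposite strand and Mir7062 on the same strand of Adam8, and Gm6999 on the same strand of Olfm4. How reads there were assigned is not given in the sources used here.

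After filtering, 8796 unchallenged, 8356 challenged once and 8286 rechallenged cells were kept, with median depths of 10969, 13004 and 10247.5 UMIs (unique molecular identifiers, which count captured RNA molecules). Between 103 and 125 cell barcodes were shared by a pair of libraries. Cells were clustered with the 8 members left out, so that they did not set a cell's stage. The neutrophil clusters, in the order of stage used here, were progenitor-like 1 (led by Elane and Ctsg), 6 (Calr and Hspa5) and 7 (Fcnb and Cebpe), then immature-like 0 (Chil3, Ngp, Ltf and Camp), 14 (Stfa1, Cd177 and Ltf) and 4 (Ly6g, Fpr2 and Lcn2), then mature-like 12 (Stfa genes, Fpr2 and Ceacam10) and 13 (Il1b, Cxcl2, Ccl6 and Wfdc17). Mature neutrophil-like cells numbered 387 unchallenged, 447 challenged once and 688 rechallenged, 4.4%, 5.35% and 8.3% of kept cells. Nearly all unchallenged mature cells were in cluster 12 (384 cells, against 167 and 247), and cluster 13 held 3 unchallenged, 280 challenged once and 441 rechallenged cells. The immature-like cells were 3269, 918 and 941, and their mix also differed: cluster 0 held 1882, 531 and 38 cells and cluster 14 held 54, 39 and 610. Cluster 4, present in all libraries with 1333, 348 and 293 cells, was therefore used beside the immature class, and cluster 12 beside the mature class. Every level given for rechallenged cluster 0 rests on its 38 cells, with 0 to 46 UMIs per member. Levels are given as UMIs per 1000000 UMIs of the cell group (CPM). One 3′ tag is counted per molecule, so levels were not divided by gene length.

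By class, 7 of the 8 members were highest in mature neutrophil-like cells, a class that pools clusters 12 and 13. Among the neutrophil clusters, Retnlg, Adam8 and Clec4d were highest in cluster 13 in both challenged libraries. The class level alone therefore does not place a gene at the gelatinase stage. Mmp8, Mmp9, Mmp25, Retnlg, Adam8, Padi4 and Clec4d had their highest level of any named class in mature neutrophil-like cells in every library, and Olfm4 did not. With doublet calls kept this held for 6, all of these but Clec4d, and in the unchallenged library the unnamed cluster 8 was as high in Clec4d as mature cells. In cluster 12 a cell thinned to 2000 UMIs held UMIs of 3.53 members on average in the unchallenged library, 3.45 after 1 challenge and 3.67 after rechallenge. The same mean was 1.13, 1.01 and 1.42 in cluster 4, 0.443, 0.478 and 0.421 in cluster 0, and 3.92 and 3.9 in challenged once and rechallenged cluster 13. More members were thus met per cell at the mature stage than in clusters 4 and 0, and the size of the step into it differed from gene to gene.

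**Figure D1:**
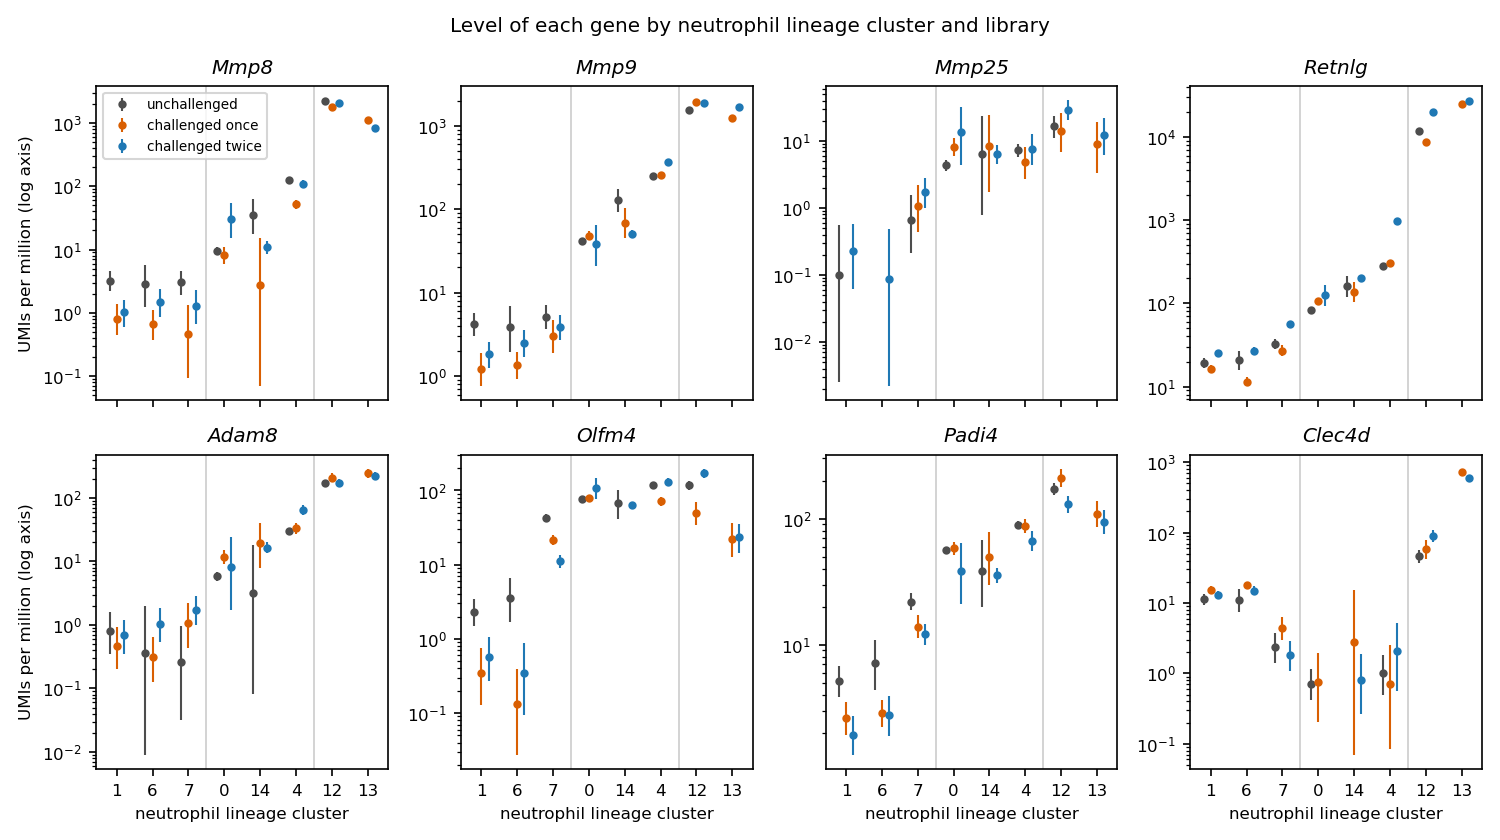
Level of each member (CPM, log axis) in the 8 neutrophil lineage clusters in order of stage, 1 panel per gene and 1 colour per library, with exact Poisson 95% intervals that cover counting error only. Vertical lines part progenitor-like, immature-like and mature-like clusters, levels of 0 and the 3 unchallenged cells of cluster 13 are not drawn. In the unchallenged library Mmp8 goes from 124 to 2192 CPM and Retnlg from 278 to 11946 CPM between clusters 4 and 12, Olfm4 goes from 119 to 118 CPM, and Clec4d is near 1 CPM in cluster 4 and at 46.1 CPM in cluster 12.

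Mmp8 stood at 124 CPM in unchallenged cluster 4 and at 2192 CPM in cluster 12, 17.6-fold higher (95% counting interval 16.6 to 18.8). In the challenged once library the same 2 levels were 51.5 and 1792 CPM, and in the rechallenged library 110 and 2066 CPM. Earlier cells held little of it: cluster 0 was at 9.55, 8.15 and 30.1 CPM in the order unchallenged, challenged once and rechallenged. The rechallenged value came from 11 UMIs in 38 cells, 10 of them in 1 cell. The progenitor-like class was at 3.11, 0.692 and 1.22 CPM, about the level in erythroid-like cells, which should lack the gene (3.75, 0.313 and 1.18 CPM), so the progenitor level was not told from background. In cluster 13 Mmp8 was lower than in cluster 12, at 1104 and 841 CPM.

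Mmp9 was seen earlier and stepped up at both transitions. Unchallenged cells went from 41.3 CPM in cluster 0 to 247 in cluster 4 (5.99-fold, 5.57 to 6.45) and 1533 in cluster 12 (6.2-fold, 5.87 to 6.54). Challenged once cells stood at 48.2, 257 and 1913 CPM in these clusters, and rechallenged cells at 38.3, 371 and 1887 CPM. The rechallenged cluster 0 value came from 14 UMIs, 10 of them in 1 cell. Levels in cluster 13 were 1250 CPM after 1 challenge and 1680 CPM after rechallenge. Many immature cells already held Mmp9: 35.3% of unchallenged cluster 4 cells had a UMI after thinning, against 15% for Mmp8 and 30% for Retnlg. In the challenged once and rechallenged libraries the Mmp9 shares were 31% and 40.1%, below the 31.8% and 58.5% of Retnlg. In unchallenged erythroid-like cells the Mmp9 and Mmp8 shares were 0.557% and 0.742% after the same thinning, with median unthinned depths of 31349 UMIs there and 7687 in cluster 4. Without thinning these 2 shares were 62% and 22.7% in cluster 4 and 9.25% and 7.12% in erythroid-like cells.

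Mmp25 was the least abundant member, with 456 UMIs over all kept cells of the 3 libraries. Its level in cluster 12 was 16.5 CPM unchallenged, 14.2 challenged once and 29.3 rechallenged, from 29, 10 and 37 UMIs. Cluster 4 stood at 7.32, 4.91 and 7.7 CPM. Unchallenged cluster 12 was 2.26-fold above cluster 4 (1.42 to 3.49), and with 10 to 37 UMIs the 3 libraries' cluster 12 values have wide intervals.

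Retnlg was the most abundant member and made up 56.6% of all member UMIs in the unchallenged, 71.4% in the challenged once and 80.6% in the rechallenged library. Unchallenged cells went from 83.1 CPM in cluster 0 to 278 in cluster 4 and 11946 in cluster 12. That last step was 43-fold (41.4 to 44.7), and 28.6-fold and 20.8-fold in the challenged once and rechallenged libraries. Challenged once cells stood at 108, 306 and 8766 CPM, and rechallenged cells at 126, 975 and 20277 CPM. Cluster 13 was higher again, at 25303 and 27329 CPM. Every thinned rechallenged cell of cluster 13 (100% of 195) had a Retnlg UMI, against 6.1% of rechallenged erythroid-like cells. Thinning left out 246 of the 441 cells, and without it the shares were 96.8% and 30.4%.

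Adam8 followed the same course at a lower level. It went from 5.83 CPM in unchallenged cluster 0 to 30.5 in cluster 4 and 170 in cluster 12, in steps of 5.22-fold (4.27 to 6.41) and 5.57-fold (4.75 to 6.53). The challenged once values were 11.8, 33.3 and 209 CPM and the rechallenged values 8.2 (from 3 UMIs), 64.7 and 170 CPM. Cluster 13 was at 244 CPM after 1 challenge and 221 CPM after rechallenge.

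Padi4 was spread over more stages than the proteases. Unchallenged cells had 21.9 CPM in cluster 7, 55.8 in cluster 0, 89.3 in cluster 4 and 171 in cluster 12, in steps of 2.55-fold, 1.6-fold and 1.92-fold. The challenged once values were 13.9, 58, 87.7 and 210 CPM, and the rechallenged values 12.2, 38.3, 66.8 and 130 CPM. Its UMIs lay in cells about as a random spread would place them: 26.3% of thinned unchallenged cluster 12 cells had one, against 27.8% if the same mean were spread evenly by a Poisson law.

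Olfm4 had no steep step into cluster 12. In unchallenged cells it stood at 43.1 CPM in cluster 7, 76.6 in cluster 0, 119 in cluster 4 and 118 in cluster 12. Challenged once cells had 21.6, 78.3, 71.9 and 49.7 CPM in these clusters and rechallenged cells 11.2, 107, 132 and 170 CPM. The 39 UMIs of rechallenged cluster 0 all lay in 2 cells. Cluster 12 was 0.991-fold of cluster 4 unchallenged (0.852 to 1.15), 0.691-fold challenged once (0.469 to 0.993) and 1.29-fold rechallenged (1.07 to 1.55). These intervals leave out the spread between cells. Cells with 5 or more UMIs in clusters 4 and 12 were 13 and 2 challenged once and 13 and 15 rechallenged, so the intervals do not settle either difference. The highest cluster was thus 4, 0 and 12 in turn, and cluster 13 was low at 22.3 and 23.3 CPM.

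The Olfm4 transcript was carried by a small share of cells at every stage. In unchallenged cluster 0, 98 of 1882 cells (5.21%, exact binomial interval 4.25 to 6.31) had 5 or more UMIs and held 96.8% of the gene's UMIs there, while 1735 cells had none. In cluster 4 such cells were 77 of 1333 (5.78%) unchallenged, 13 of 348 (3.74%) challenged once and 13 of 293 (4.44%) rechallenged, and held 97%, 98% and 100% of the UMIs. In cluster 12 they were 13 of 384 (3.39%), 2 of 167 (1.2%) and 15 of 247 (6.07%). After thinning, 4.88% of unchallenged cluster 12 cells had an Olfm4 UMI, where a Poisson law at the same mean gives 24.4%.

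In the unchallenged immature clusters, cells with and without Olfm4 had like levels of specific granule genes. Among unchallenged cluster 4 cells, the 77 with 5 or more Olfm4 UMIs had 66931 CPM of Camp and 7130 CPM of Ltf, specific granule genes, and the 1227 without any had 66701 and 7425 CPM. Mmp9 stood at 222 CPM in the former and 250 CPM in the latter, Mmp8 at 84.2 and 128 CPM, and Padi4 at 114 and 87.6 CPM. Median depths were 7549 and 7670 UMIs. In unchallenged cluster 0 the 98 high cells and 1735 cells without had 65142 and 65019 CPM of Camp. Elsewhere such cells were few and differed more: in rechallenged cluster 12 the 15 high cells had 22116 CPM of Camp against 29111 CPM in 232 cells without, and in challenged once cluster 12 the 2 high cells had 58092 against 30769 CPM. Mmp8 in rechallenged cluster 4 was at 23.4 CPM in 13 high cells and 114 CPM in 280 cells without.

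**Figure D2:**
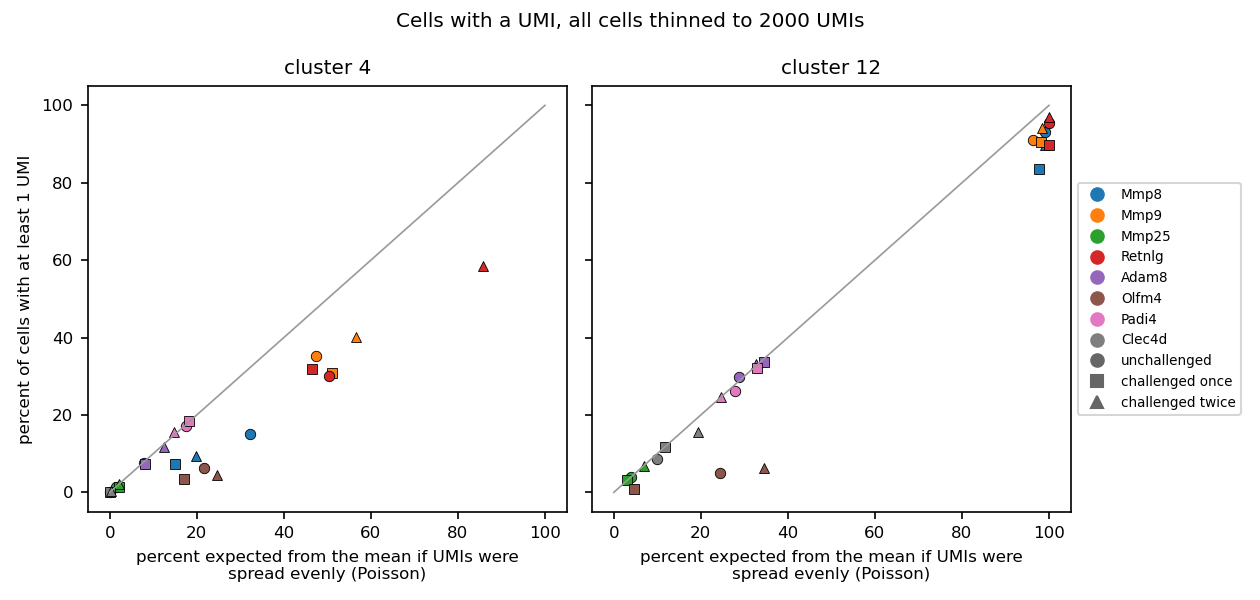
Share of cells with at least 1 UMI of each member (y axis, percent) against the share that an even Poisson spread of the same mean would give (x axis, percent), all cells thinned to 2000 UMIs, in cluster 4 and cluster 12, with colours for genes and symbols for libraries. Points on the line have the share that an even spread gives. Padi4, Adam8 and Mmp25 lie on or near it and Olfm4 lies far below, at 4.88% against 24.4% in unchallenged cluster 12. Mmp25 had 19 UMIs in 1325 thinned unchallenged cluster 4 cells, too few to show how it was spread.

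Retnlg and Mmp8 were also unevenly spread in cluster 4. Mmp8 had a UMI in 15% of thinned unchallenged cluster 4 cells where the mean gives 32.2%, and in 93.2% of cluster 12 cells where it gives 99.1%. Retnlg had a UMI in 30% of those cluster 4 cells where the mean gives 50.4%, and the highest 5% of cells (66 of 1325) held 53.2% of its UMIs. In unchallenged cluster 12, 95.4% of thinned cells had a Retnlg UMI. The variance over cells was 24.8 times the mean for Retnlg, 1.7 times for Mmp8 and 1.13 times for Padi4. Their means were 27.5, 4.67 and 0.325 UMIs per cell. This ratio rises with the mean at the same relative spread, so it does not rank the 3 genes by unevenness.

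Clec4d had a course of its own, present early, near 0 in the middle and highest late. It stood at 11.3 CPM in unchallenged cluster 1, 2.37 in cluster 7, 0.719 in cluster 0, 1.01 in cluster 4 and 46.1 in cluster 12. The challenged once values in these clusters were 15.3, 4.43, 0.759, 0.701 and 58.2 CPM, and the rechallenged values 12.9, 1.83, 0, 2.05 and 90.3 CPM, the 0 resting on 38 cells. Cluster 13 was higher, at 733 CPM after 1 challenge and 599 CPM after rechallenge, 12.6-fold (9.15 to 17.8) and 6.63-fold (5.4 to 8.18) above cluster 12 of the same library. The immature levels were no higher than in erythroid-like cells (2.12, 3.25 and 3.55 CPM), whereas cluster 1 was above them in all 3 libraries.

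Clec4d also had much of its RNA outside neutrophils. An unnamed cluster 8, led by Apoe, F2r and Gata2, held it at 55.2 CPM unchallenged, 50.2 CPM challenged once and 55.5 CPM rechallenged. Megakaryocyte-like cells were at 27.2, 22.3 and 19.3 CPM and monocyte-like cells at 8.03, 10.1 and 11.3 CPM. After thinning, 9.3%, 11.2% and 12.1% of cluster 8 cells had a UMI, against 0.371%, 0.645% and 0.407% of erythroid-like cells. The 3 libraries overlapped in cluster 8 within their counting intervals, as did unchallenged cluster 8 (48.7 to 62.2 CPM) and unchallenged cluster 12 (36.6 to 57.3 CPM). Median depths were 11780, 10570 and 6599 UMIs in cluster 8 and 31349, 26261 and 16666 UMIs in erythroid-like cells.

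**Figure D3:**
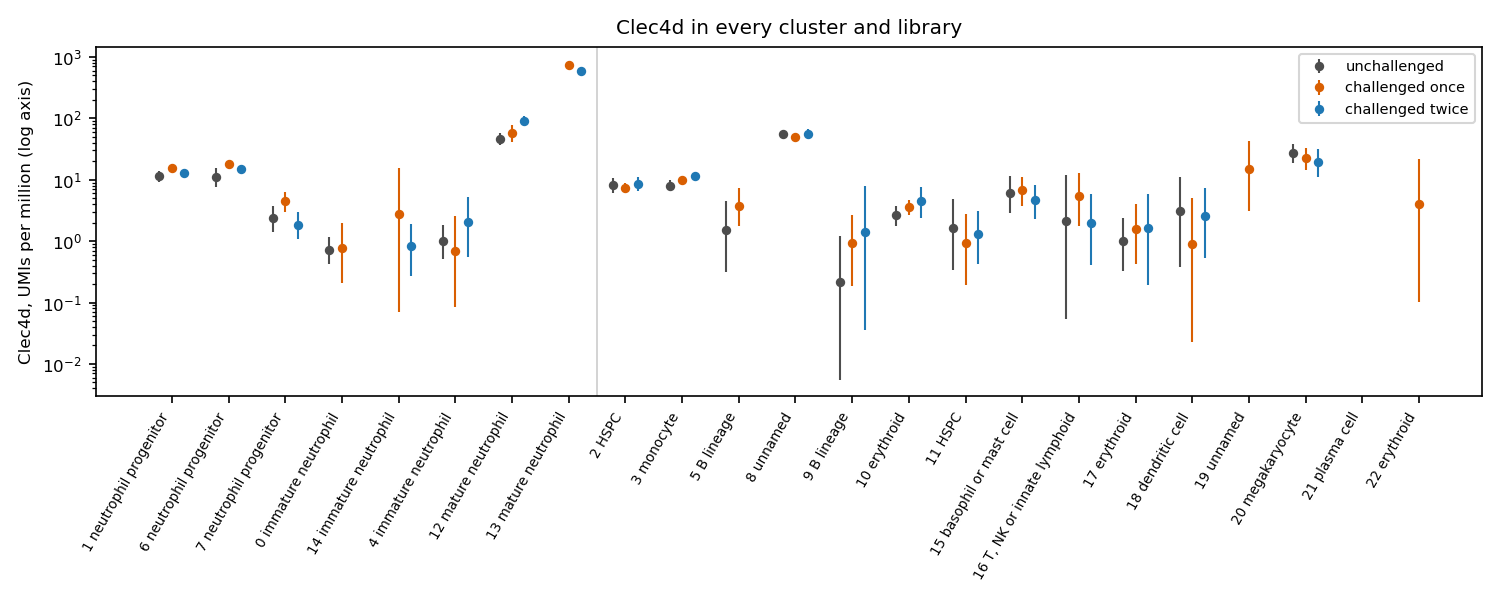
Clec4d level (CPM, log axis) in every cluster and library, with exact Poisson 95% intervals that cover counting error only; neutrophil lineage clusters stand left of the line in order of stage, and levels of 0 and cluster 13's 3 unchallenged cells are not drawn. The highest levels are 733 and 599 CPM in cluster 13, and cluster 8 stands at 50.2 to 55.5 CPM.

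Padi4 and Adam8 had smaller sites outside the lineage. HSPC-like cells, stem and progenitor cells, held Padi4 at 19.3 CPM unchallenged, 14.1 challenged once and 7.32 rechallenged, and B lineage-like cells held it at 11.1, 12.2 and 3.95 CPM. Erythroid-like cells were at 1.21, 0.438 and 0 CPM, and after thinning 3.99%, 3.42% and 1.42% of HSPC-like cells had a UMI against 0.557%, 0.323% and 0% of erythroid-like cells, where 0 of 246 cells allows up to 1.22%. After thinning, 0 of 143 rechallenged B lineage-like cells had a Padi4 UMI, which allows up to 2.1%, so that level was not told from background. Median depths were 3617, 2764 and 1463 UMIs in B lineage-like cells and 9122, 13622 and 9153 UMIs in HSPC-like cells. Erythroid-like cells were deeper, at 31349, 26261 and 16666 UMIs. A like background per cell gives a higher CPM in shallower cells. Its part in the unchallenged and challenged once B lineage-like levels was not tested. Retnlg in those HSPC-like cells was lower than in erythroid-like cells in the unchallenged and rechallenged libraries and higher in the challenged once library, at 24.3, 14.3 and 28.9 against 33.7, 9.26 and 31.8 CPM. Dendritic cell-like cells held Adam8 at 40, 19.9 and 14.5 CPM, from 26, 22 and 17 UMIs, against 0.969, 0.501 and 1.42 CPM in erythroid-like cells.

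The whole sample levels joined these stage levels to the number of cells. Over all kept cells, where fewer cells of a type and less RNA per cell cannot be told apart, Retnlg was at 255, 208 and 622 CPM and Mmp8 at 52.4, 18.5 and 43.8 CPM. After 1 challenge 4 of 8 members were at least 1.5-fold lower over all kept cells, Mmp8, Mmp9, Olfm4 and Padi4, and 0 higher, where 1.52% of 12181 genes were lower and 1.99% higher. After rechallenge Retnlg and Clec4d were higher and Olfm4 and Padi4 lower than in the unchallenged library, where 2.3% of 11944 genes were higher and 4.06% lower. Rechallenged over challenged once, Mmp8, Mmp9 and Retnlg were higher, where 1.44% of 12070 genes were higher and 8.43% lower. Immature neutrophil-like cells were 37.2%, 11.0% and 11.4% of kept cells in the 3 libraries. Mature neutrophil-like cells held 66.5% of the Mmp8 UMIs in the unchallenged, 85.6% in the challenged once and 85.5% in the rechallenged library, and 74.6%, 87.7% and 89.9% of the Retnlg UMIs. They held 9.4%, 15.7% and 27.4% of Padi4 and 5.38%, 6.03% and 21.9% of Olfm4. Immature cells held most Olfm4 (81.2%, 74.5% and 63.7%) and the largest part of Padi4 (72.1%, 40.7% and 39.8%). For Clec4d the mature cells' share was 11.4%, 27.3% and 43.6%, while cluster 8 gave 33.5%, 15.3% and 7.93% and progenitor-like neutrophils 20.4%, 35.6% and 27.7%.

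**Figure D4:**
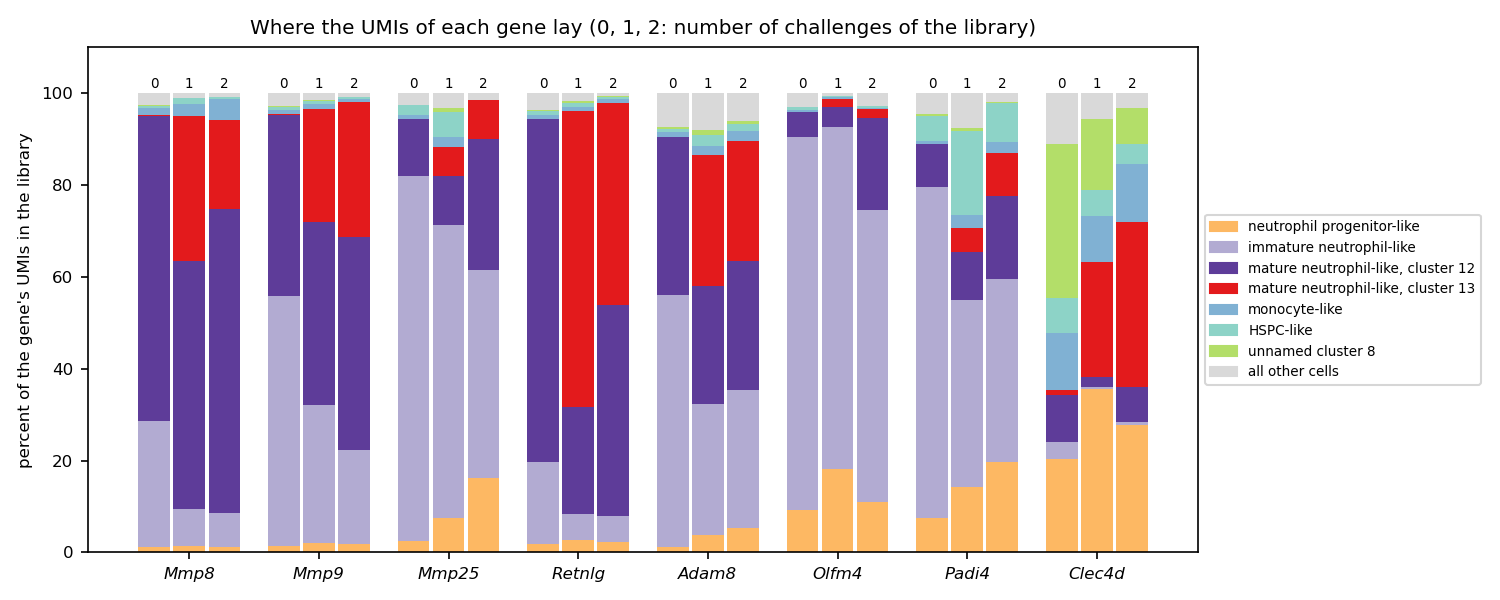
Percent of each member's UMIs in a library (y axis) by the cells that held them, 3 bars per gene for 0, 1 and 2 challenges; each bar sums to 100. Mmp8 and Retnlg come mostly from mature cells in every library, Olfm4 mostly from immature cells, and Clec4d has large parts in progenitor-like neutrophils, monocyte-like cells and cluster 8.

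Whether the mature cells of the challenged marrow differed in these genes was the first comparison. In mature neutrophil-like cells, 2 of the 7 members with at least 100 UMIs over the pair differed by 1.5-fold or more after 1 challenge: Clec4d was higher and Olfm4 lower. Of all 2184 genes measured there, 12.7% were that much higher and 5.54% that much lower. The ratios are log2 after adding 10 CPM to both values. Clec4d stood at 51.1 CPM unchallenged and 388 CPM challenged once, a log2 ratio of 2.70, and Olfm4 at 118 and 36.4 CPM, a log2 ratio of -1.47. The other 5 were within the fold, Mmp8 just so, at 2187 and 1456 CPM and a log2 ratio of -0.58, and the median of the 7 was 0.05 against 0.03 over all genes measured. Mmp25 was at 16.5 and 11.6 CPM and had too few UMIs.

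The Clec4d difference in the class went with cluster 13, which held 280 of the 447 challenged once cells and 3 of the 387 unchallenged cells. Within cluster 12 alone it was at 46.1 and 58.2 CPM, 1.26-fold higher after 1 challenge (0.845 to 1.86), a log2 ratio of 0.28. Olfm4 alone passed the fold there, at 118 and 49.7 CPM with a log2 ratio of -1.10, where 2.39% of 1760 genes were that much lower and 4.66% higher, and the median of the 7 was 0.28 against 0.04 over all genes. That difference rested on 13 and 2 cells with 5 or more UMIs, a spread between cells that the UMI intervals do not cover. Median depths in cluster 12 were 4245.5, 3397 and 4894 UMIs and median mitochondrial shares 0.506%, 0.694% and 1.22% in the 3 libraries, the last following the whole libraries (2.07%, 2.58% and 4.1%). Levels of other cells' genes also differed: 12 markers of other cell types summed to 2593 CPM in unchallenged, 2485 in challenged once and 1897 in rechallenged cluster 12, and to 1415 and 746 CPM in cluster 13, with none of the 12 at 0. Most of the sum was Ly6c2, at 1834, 1869 and 1663 CPM in cluster 12, which neutrophil lineage cells also express. The part of depth, mitochondrial share and these markers in the results was not tested.

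After rechallenge, Retnlg and Clec4d were higher in mature neutrophil-like cells than in the unchallenged library, 2 of 7 members, and none was lower by 1.5-fold. Of 2457 genes measured, 13.1% were that much higher and 16.5% that much lower. Retnlg was at 11925 CPM unchallenged and 23217 CPM rechallenged (log2 ratio 0.96) and Clec4d at 51.1 and 302 CPM (log2 ratio 2.35). Padi4 was at 171 and 115 CPM, a log2 ratio of -0.53, within the fold. The median of the 7 was 0.17 against -0.10 over all genes.

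Both genes passed in cluster 12 alone as well. There Retnlg was 1.7-fold higher after rechallenge (1.67 to 1.73) and Clec4d 1.96-fold higher (1.46 to 2.64), where 5.17% of 1914 genes were 1.5-fold higher on the log2 scale used and 17.5% lower, and the median of the 7 was 0.30 against -0.21 over all genes. In the same cluster 6 of 6 measured azurophil genes were lower, Elane at 399 and 99.8 CPM, and of 12 measured specific granule genes 2 were lower, Chil3 and Lyz2. The part of background in the azurophil levels was not tested. Of 19 measured late neutrophil genes 4 were higher, Trem1, Ccl6, G0s2 and Stfa2l1.

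Rechallenged against challenged once mature cells differed in 1 of 7 members, Olfm4, at 109 against 36.4 CPM (log2 ratio 1.36), where 4.4% of 2274 genes were that much higher and 13.6% that much lower. In cluster 12 alone 3 of 7 passed: Retnlg at 20277 against 8766 CPM (log2 ratio 1.21) and Olfm4 at 170 against 49.7 CPM (1.60) were higher, and Padi4 at 130 against 210 CPM (-0.65) was lower. In that cluster 6.47% of 1313 genes were higher and 21.2% lower, and the median of the 7 was 0.20 against -0.24. The 2 challenged libraries had like cluster 13 levels, with none of the 6 measured members past 1.5-fold, where 10.5% of 1242 genes were higher and 11.0% lower. Mmp8 there was at 1104 and 841 CPM and Mmp9 at 1250 and 1680 CPM, challenged once first.

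**Figure D5:**
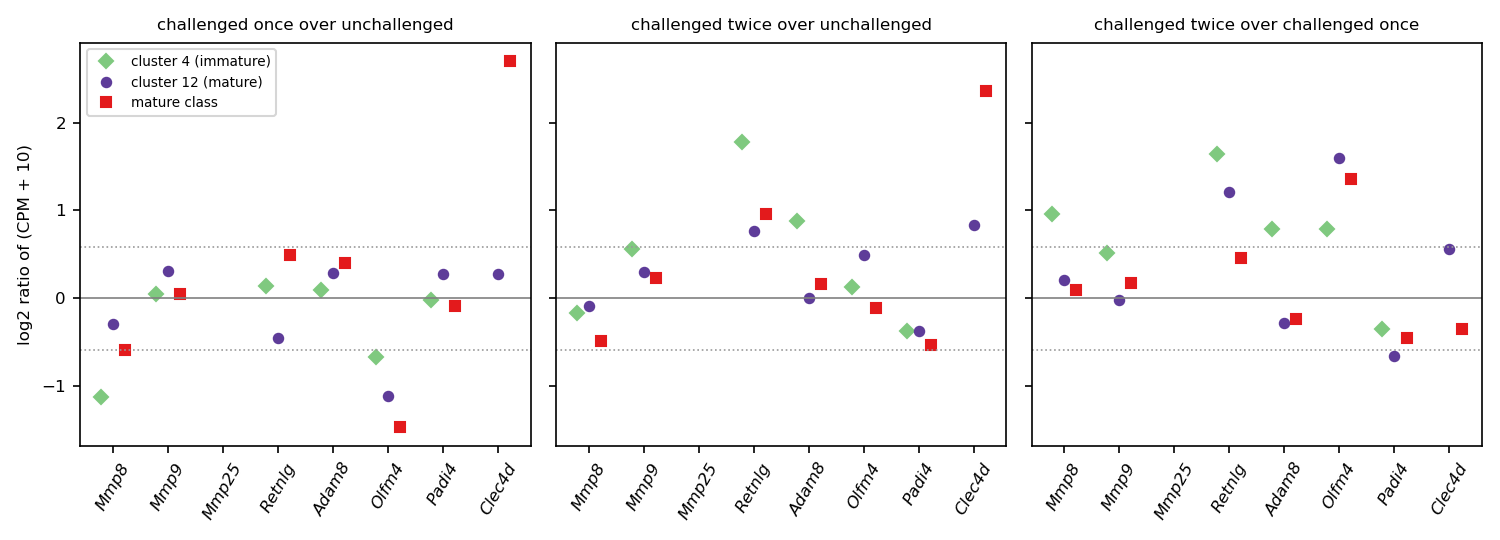
Log2 ratio of (CPM + 10) for each member between libraries, 1 panel per comparison, in cluster 4, cluster 12 and the whole mature class; dotted lines mark 1.5-fold, and members with under 100 UMIs over the pair are not drawn. Clec4d is 2.70 in the mature class and 0.28 in cluster 12 after 1 challenge, while Retnlg in the rechallenged over unchallenged panel is past the line in all 3 groups of cells.

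In immature neutrophil-like cells Mmp8 was 1 of 7 measured members past the fold after 1 challenge, lower at 22.5 against 45.7 CPM (log2 ratio -0.78), where 0.271% of 8128 genes were that much lower and 0.997% that much higher. After rechallenge Retnlg and Adam8 were higher, 2 of 7, at 378 against 145 CPM and 27.2 against 13.5 CPM, where 2.2% of 8062 genes were higher and 4.95% lower. Rechallenged against challenged once cells differed in Retnlg only, 1 of 7, at 378 against 176 CPM, with 1.65% of 6241 genes higher and 9.47% lower. The class medians of the members were 0.15, 0.15 and 0.14 in these comparisons, against 0.07, -0.11 and -0.19 over all genes. The class calls depended on how immature cells were drawn: with no cell filter Retnlg was not past the fold in either rechallenged comparison, where 0 members were higher and 4 and 2 were lower, unchallenged comparison first. With all variable genes clustered Retnlg passed over the unchallenged but not over the challenged once library, and the lower Mmp8 after 1 challenge did not pass with the filter at 1000 UMIs and 500 genes or at resolution 2.

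Because the immature clusters came from the libraries in unlike shares, cluster 4 gives the closer comparison, though its cells were not matched in stage between libraries. Mmp8 was 124 CPM unchallenged and 51.5 CPM challenged once (log2 ratio -1.12), and Olfm4 119 and 71.9 CPM (-0.66), 2 of 6 measured members, where 0.394% of 5330 genes were that much lower and 2.31% higher. The Mmp8 level rested on few cells: 112 of 1333 unchallenged cells had 5 or more UMIs and held 72.4% of its UMIs, against 8 of 348 challenged once cells with 46.3%, while 1030 and 297 cells had none. After rechallenge Retnlg was at 975 CPM against 278 CPM unchallenged (3.51-fold, 3.31 to 3.72) and Adam8 at 64.7 against 30.5 CPM (2.12-fold, 1.72 to 2.62), 2 of 6, with 4.3% of 5089 genes higher and 8.27% lower. Mmp9 at 371 against 247 CPM was just inside the fold, at a log2 ratio of 0.57. Rechallenged against challenged once, 4 of 6 were higher, Mmp8, Retnlg, Adam8 and Olfm4, with log2 ratios of 0.96, 1.64, 0.79 and 0.79, where 3.92% of 2880 genes were higher and 18.9% lower. The medians of the 6 were 0.02, 0.35 and 0.79 in these comparisons, against 0.11, -0.09 and -0.22 over all genes. Of 13 measured specific granule genes 0 passed the fold in cluster 4 after 1 challenge. Median depths of cluster 4 were 7687, 6964.5 and 6175 UMIs and median mitochondrial shares 0.667%, 0.876% and 1.45%. Cxcr2 and Elane differed as well in its cells without an Olfm4 UMI. Cxcr2 was at 23.0, 37.9 and 41.4 CPM and Elane at 263, 213 and 126 CPM there, while Ltf was alike at 7425, 6961 and 7432 CPM. In cluster 12 cells without an Olfm4 UMI, Elane was higher, at 398 CPM unchallenged and 354 CPM challenged once. In the rechallenged library it was lower in cluster 12 than in cluster 4. Elane thus did not fall steadily with stage, and its values do not place the cluster 4 cells by stage. The part of depth, mitochondrial share, background and stage was not tested. The share of thinned cluster 4 cells with a Mmp8 UMI was 15%, 7.44% and 9.51%, and with a Retnlg UMI 30%, 31.8% and 58.5%, unchallenged, challenged once and rechallenged.

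The last progenitor-like cluster, 7, held 3 members at 100 UMIs or more over a pair, Retnlg, Olfm4 and Padi4. Olfm4 there was at 43.1 CPM unchallenged, 21.6 CPM challenged once and 11.2 CPM rechallenged, 1 of 3 members lower after 1 challenge, where 0.736% of 6521 genes were lower and 1.69% higher. After rechallenge Olfm4 was lower (log2 ratio -1.33) and Retnlg higher, at 56.9 against 32.6 CPM (0.65), where 2.96% of 6780 genes were higher and 10.3% lower. Over challenged once cells, 27.1 CPM, Retnlg was higher as well (0.85), where 2.46% of 6619 genes were higher and 16.0% lower. Cells with 5 or more Olfm4 UMIs were 16 of 450, 6 of 314 and 8 of 759 in that cluster. Retnlg in erythroid-like cells, which should lack it, was at 33.7, 9.26 and 31.8 CPM, against 32.6, 27.1 and 56.9 CPM in cluster 7. The unchallenged cluster 7 level was thus not told from background. From the challenged once to the rechallenged library the erythroid-like level was 3.43-fold higher (2.69 to 4.36) and cluster 7 was 2.1-fold higher (1.77 to 2.5), and that cluster 7 difference cannot be told apart from one of background.

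Relatives of the members gave few values. Of 9 other matrix metalloproteinases none reached 100 UMIs over a pair of libraries in mature or immature cells, and together they had 3, 2 and 0 UMIs in cluster 12. The same held for the 4 other peptidylarginine deiminases, with 3, 1 and 0 UMIs in cluster 12. Of 8 metalloproteinase inhibitors, Timp2 alone was measured in mature cells, at 99.4, 134 and 170 CPM, and was past 1.5-fold after rechallenge. Of 7 other ADAM proteases, Adam19 was higher after 1 challenge and after rechallenge, at 15.3, 56 and 38.8 CPM. Retn, the resistin gene, was at 4.54, 29.8 and 31.9 CPM. Of the lectin neighbours and partners of Clec4d, 4 of 10 were measured: Clec4e (112, 318 and 384 CPM) and Syk (68.7, 126 and 117 CPM) were higher after 1 challenge and after rechallenge, Clec4a2 (519, 301 and 239 CPM) was lower, and Fcer1g (2345, 2754 and 2599 CPM) was within the fold. These genes, unlike the members, were not kept out of the clustering, and Clec4e is also one of the markers that named the mature class. The CPM levels in this paragraph are of the whole mature class. Cluster 13 made up 3 of its 387 unchallenged, 280 of its 447 challenged once and 441 of its 688 rechallenged cells. The part of that mix in these differences was not tested.

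Other genes with levels most like the members' over 35 sums of a class in a library were named by Pearson correlation of log2(CPM + 10) among 11493 genes. The sums share libraries and depth, so the values are a description. Mmp8 was most like Scrg1 (0.981), Amer2 (0.979) and Il1rn (0.976), Mmp9 most like Ceacam10 (0.989), Slfn4 (0.982) and Scrg1 (0.981), and Mmp25 most like Ceacam10 (0.987), Pabpc1l (0.982) and Bmpr1a (0.979). Retnlg was most like Slc22a20 (0.975), Scrg1 (0.974) and Amer2 (0.969), and Adam8 most like Fcgr4 (0.969), Rasgrp4 (0.952) and Slfn1 (0.948). The nearest genes of Olfm4 were Ppp1r42 (0.967), Chil1 (0.956) and Itgb2l (0.955), those of Padi4 Cd33 (0.956), Crispld2 (0.954) and Ankrd22 (0.954), and those of Clec4d Arg2 (0.912), Ppp1r3d (0.904) and Sfxn5 (0.899). Among the members themselves, Mmp8 and Retnlg were the closest pair (0.984) and Olfm4 and Clec4d the farthest (0.438).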

How the data were processed

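Single-cell libraries were made with the 10x Genomics 3′ kit, version 2 chemistry, per the labels. The deposited tables hold whole-number UMI counts per gene and cell barcode, made by the authors with Cell Ranger 3.0.0 on mm10, per the submitters' processing notes; their annotation release and settings are not given in the sources used here. Sample labels were used for the groups, since the series' design text speaks of 2 samples and a different treatment.

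Barcodes under 500 UMIs, under 300 genes or above 10% mitochondrial UMIs were dropped. Scrublet called doublets per library at an expected rate of 6% (427, 294 and 256 cells, 4.63%, 3.4% and 3% of the cells that passed the filter) and these were left out. With scanpy 1.11.5 and leidenalg 0.10.2 the libraries were clustered together without correction between them. Clustering used 2000 variable genes, 30 principal components and 15 neighbours at resolution 1. The 8 members, mitochondrial genes, ribosomal protein genes and a further list of excluded genes were left out before variable genes were chosen. Clusters of at least 20 cells took a name ending in "like" from at least 3 markers at 2-fold. UMIs were summed per population and library and given as CPM. Ratios are log2 after adding 10 CPM, for genes whose UMIs in both libraries sum to at least 100. Intervals are exact 95% Poisson or Clopper-Pearson intervals and cover counting error only. Each group has 1 library, so no test across samples was made. The ratio step was tested on simulated summed Poisson counts with known folds, without spread between cells. The other steps were not tested in this way. Python 3.11.15, numpy 2.4.6, scipy 1.17.1, pandas 2.3.3, anndata 0.12.19 and matplotlib 3.10.9 were used.

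The members, gene lists and tests were chosen with earlier results of these data known. The text names all members, up to 4 genes of each list described, and up to 3 genes most like each member. The alternatives tried were other cell filters, doublets kept, resolution 2, all variable genes clustered, median-of-ratios scaling, 1 CPM added, thinning to 2000 UMIs and no count minimum. With all variable genes clustered, every gene left out of the main clustering was allowed back, not the members alone.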

Additional observations from a re-analysis of the deposited data

How the results depend on the processing

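No paired analysis was possible because each group had 1 library. That 7 members were highest in mature cells held under each alternative that gave a value but 1: with doublet calls kept it was 6, without Clec4d. Mmp8 and Retnlg had over 50% of their UMIs in mature cells in all libraries under each alternative that gave a value, joined by Mmp9 after thinning. Of 399 log2 ratios of single members 131 moved by more than their counting interval, and of 120 levels 39 did. The counts of members past 1.5-fold changed as follows. In mature cells, rechallenged over unchallenged, 2 became 4 with no cell filter, Mmp8 and Padi4 being added as lower. Rechallenged over challenged once, 1 became 0 with the filter at 1000 UMIs and 500 genes, and 2 with doublet calls kept or median-of-ratios scaling, Retnlg being added as higher. In immature cells, challenged once over unchallenged, 1 became 0 with the filter at 1000 UMIs and 500 genes or at resolution 2. Rechallenged over unchallenged, 2 became 4 with no cell filter (4 lower) or with all variable genes clustered (Retnlg higher and 3 lower). Rechallenged over challenged once, 1 became 2 with the filter at 1000 UMIs and 500 genes, no cell filter, doublet calls kept, all variable genes clustered or median-of-ratios scaling, and 3 with 1 CPM added. In alternatives chosen after seeing the data, mature cells without cluster 13 gave 1 challenged once over unchallenged and 3 rechallenged over challenged once, and cluster 4 alone gave 2 challenged once over unchallenged and 4 rechallenged over challenged once in place of the immature class. The cause was not tested. Median-of-ratios scaling took out median log2 ratios of 0.04, -0.11 and -0.16 in mature and 0.13, -0.21 and -0.30 in immature cells. Members' log2 ratios thus moved in the opposite direction, by less where levels were near the 10 CPM added. With the filter at 1000 UMIs and 500 genes 3 unchallenged cells were named mature, so their ratios, levels and shares have no value there. The mature class there was 1 cluster of 3, 244 and 337 cells, and its rechallenged over challenged once count covers those cells only. An unnamed cluster, nearest to immature neutrophils by markers, held 790, 295 and 342 cells with a median depth of 5143 UMIs. In the main setting 15 of the 384 unchallenged cluster 12 cells had under 2000 UMIs. Depth limits Mmp25 in mature and Clec4d in immature cells, which had under 100 UMIs over each pair compared.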
